A study of Mus musculus with 4 samples.

Results

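The regions described here are stretches of open chromatin that were called as ATAC-seq peaks in both wild-type (WT) libraries and in neither Ezh2 knockout (KO) library. They are named WT-only regions. Joining all peaks that shared 1 bp or more gave 91858 union regions over the 4 peak lists, and 1867 of these were WT-only. That is 2.03% of all regions (95% Clopper-Pearson interval 1.94 to 2.13, counting error only). The calls themselves chose these regions, so their number and their peak values are a description and carry no test. Regions called in exactly 1 WT and 1 KO list are given beside them as a reference, since such a pattern crosses genotype. There were 5694 of these crossing regions (6.20%), with 959, 1409, 1276 and 2050 in the 4 possible pairs of 1 WT and 1 KO library. The WT-only count lay within that range of pair counts.

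All cells were bone marrow-derived macrophages of mice, grown from marrow for 7 to 10 days with L929 conditioned medium at 20%, a source of macrophage growth factor. KO cells came from Ezh2fl/fl;LysM-Cre+/- animals and WT cells from littermate controls, whose own alleles the labels do not give. Both groups, with 2 libraries each, were exposed for 24 h to conditioned medium of Hepa1-6 cells, which are a line of mouse hepatoma, so no library here shows unexposed cells. LysM-Cre is expressed from the Lyz2 locus of myeloid cells, and deletion in such cultures can be incomplete. The labels do not say whether libraries of a group came from separate mice, pooled marrow or separate cultures. Differences between libraries may therefore be technical.

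Ezh2 is the catalytic subunit of Polycomb repressive complex 2 (PRC2). That complex places methyl groups on lysine 27 of histone H3 and helps to keep developmental genes silent. In ATAC-seq a transposase cuts DNA that is free of nucleosomes, so peaks mark promoters, enhancers and other open elements. In macrophages, most distal open elements are bound by PU.1 together with C/EBP, AP-1 and IRF factors, and many of them change with the signals that the cell receives.

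The lists held 69210 and 72887 peaks in WT and 67055 and 71111 in KO. No read counts were used here, so the depth of each library is unknown, and a missing call can come from lower depth in a library as well as from closed chromatin. The libraries carried the open chromatin of macrophages. All 12 macrophage marker genes had a called region at a gene end, meaning within 1 kb of it, in each of the 4 lists. This held for 1 of 8 hepatocyte and hepatoma, 0 of 6 B cell and 2 of 8 T and NK cell markers. It also held for 2 of 7 neutrophil, 1 of 5 mast cell and basophil and 2 of 5 dendritic cell markers. For fibroblast and erythroid markers it was 1 of 5 and 3 of 5. The region that counted could differ from list to list. Ezh2 itself, the targeted gene, had 5 and 3 peaks in the WT lists and 4 and 3 in the KO lists, and no WT-only region. Peak calls along the gene do not show whether the floxed exons were lost.

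Few regions of any of these patterns lay on annotated transcription starts. Of the WT-only regions, 37 (1.98%, interval 1.40 to 2.72) touched the RefSeq start window of a protein-coding gene, which holds 300 bases, 250 before the start to 50 after it. The crossing pairs ran from 1.56% to 2.44%, so the WT-only share lay within their range. The touched windows belonged to 37 of 17492 genes with such a window (0.212%). In 28 of the 37 the region covered the start site itself. The 5 windows printed here are those of the 4 strongest such regions, near Zfp781, Col27a1, Nck1 and Nat8, and that of Isg15, the only member of the interferon response list with a WT-only region. They are RefSeq sequences of GRCm38.p6 (mm10), written 5′ to 3′ on the strand of the gene, with every match to a searched motif in capitals.
Zfp781, chr10:81930463-81930762 (minus strand): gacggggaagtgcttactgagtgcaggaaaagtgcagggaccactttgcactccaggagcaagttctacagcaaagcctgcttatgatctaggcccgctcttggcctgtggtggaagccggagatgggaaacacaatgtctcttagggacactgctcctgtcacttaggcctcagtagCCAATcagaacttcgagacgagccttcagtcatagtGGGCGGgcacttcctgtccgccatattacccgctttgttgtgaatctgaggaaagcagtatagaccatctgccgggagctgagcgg
Col27a1, chr4:63215162-63215461 (plus strand): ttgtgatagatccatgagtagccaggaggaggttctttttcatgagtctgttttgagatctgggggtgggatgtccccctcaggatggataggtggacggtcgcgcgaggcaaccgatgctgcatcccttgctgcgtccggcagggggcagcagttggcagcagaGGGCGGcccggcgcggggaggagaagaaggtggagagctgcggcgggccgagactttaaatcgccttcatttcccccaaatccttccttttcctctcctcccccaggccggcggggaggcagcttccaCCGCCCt
Nck1, chr9:100506807-100507106 (minus strand): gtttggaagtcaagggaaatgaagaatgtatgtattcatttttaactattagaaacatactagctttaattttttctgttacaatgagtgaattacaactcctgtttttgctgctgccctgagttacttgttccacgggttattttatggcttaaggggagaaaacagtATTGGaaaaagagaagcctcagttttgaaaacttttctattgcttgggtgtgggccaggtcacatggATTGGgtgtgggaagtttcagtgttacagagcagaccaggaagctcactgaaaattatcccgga
Nat8, chr6:85836808-85837107 (minus strand): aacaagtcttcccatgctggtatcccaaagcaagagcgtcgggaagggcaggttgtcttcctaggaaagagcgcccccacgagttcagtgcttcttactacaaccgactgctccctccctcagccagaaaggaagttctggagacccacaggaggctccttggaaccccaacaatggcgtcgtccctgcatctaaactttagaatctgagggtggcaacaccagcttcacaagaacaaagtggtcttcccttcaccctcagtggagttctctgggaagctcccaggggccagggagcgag
Isg15, chr4:156200769-156201068 (minus strand): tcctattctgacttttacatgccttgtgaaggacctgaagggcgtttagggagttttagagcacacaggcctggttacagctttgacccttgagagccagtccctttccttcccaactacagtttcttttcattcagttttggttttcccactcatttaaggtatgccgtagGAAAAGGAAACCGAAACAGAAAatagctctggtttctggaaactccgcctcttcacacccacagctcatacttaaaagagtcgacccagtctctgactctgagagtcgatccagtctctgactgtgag

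The 10 motifs were searched on both strands. Those of macrophage factors were GAGGAAGT for PU.1, TGANTCA for the AP-1 dimers, TTGCNNAA for C/EBP and a spaced pair of GAAA for IRF. Those of general promoter factors were GGGCGG for the SP family, CCAAT for the NFY complex, CACGTG for E-box proteins, TGACGTCA for CREB, TATAAA for the TATA box and a spaced pair of GCGC for NRF1. In the Isg15 window, matches to the IRF letters began at bases -78, -72 and -66 from the start site and overlapped each other, and all 3 lay inside the WT-only region. Isg15 encodes a ubiquitin-like protein that interferon strongly induces. The Zfp781 window held CCAAT at -72 and GGGCGG at -36, and the Nck1 window held CCAAT at -81 and -14, all of them inside the called region. Zfp781 encodes a zinc finger protein, and Nck1 an adaptor that links tyrosine kinase receptors to actin. In the Col27a1 window, GGGCGG lay at -85 inside the region and at 43 outside it. The Nat8 window held none of the 10 motifs. Col27a1 encodes a fibrillar collagen chain and Nat8 an acetyltransferase.

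Among the 37 windows, GGGCGG was the most frequent motif. It stood in 29 (78.4%, interval 61.8 to 90.2), and in 25 a match lay inside the called region. With the same count of 1 window per gene and region, crossing regions touched 121, of which 57.0% held it, and 46.2% of all 21263 windows did. These WT-only windows were also rich in GC, with a mean of 62.6% against 58.9% for crossing and 56.2% for all windows, and with 20.8 CpG per window against 16.6 and 15.4. A GC-rich motif is more frequent in GC-rich windows, and the part of base composition in that count was not tested. CCAAT was found in 9 windows (24.3%, interval 11.8 to 41.2), against 28.9% of crossing and 38.2% of all windows. The C/EBP letters stood in 4 (crossing 12.4%, all windows 10.2%) and the AP-1 letters in 3 (crossing 6.61%, all windows 6.99%). The E-box, NRF1 and IRF letters stood in 2 windows each. Crossing windows held them at 10.7%, 4.13% and 4.13%, and all windows at 7.84%, 8.57% and 3.35%. TATAAA stood in 1 (2.70%), against 14.05% of crossing and 12.6% of all windows. None of the 37 windows held the PU.1 or CREB letters. These stood in 5.79% and 0.826% of crossing windows and in 3.13% and 2.23% of all windows.

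The regions at these starts were broad and weak. Strength is defined here as the smaller of the 2 percentiles that a region's peaks held when each WT list was ranked by fold, the peak caller's enrichment over local background. The 37 regions had a median width of 386 bp and a median strength of 8.42, with a range from 0.583 to 47.6. Zfp781 had the strongest, with fold values of 4.89 in WT replicate 1 and 4.26 in WT replicate 2. At Col27a1 the fold was 3.94 in WT replicate 1 and 7.28 in WT replicate 2, so the WT libraries ranked the same region at percentiles 34.4 and 93.9. Nck1 had 3.65 and 3.31, and Nat8 had 3.57 and 3.25. Isg15 lay close to the weakest calls, with 2.57 and 2.82, which put it at percentiles 1.04 and 5.64. For 15 of the 37 genes no region called in all 4 lists was assigned to the gene. That count was not made for genes whose start windows crossing regions touched. Among the 15 were Zfp781, Nat8 and Isg15, each of which had the WT-only region as its single assigned region. Others of these 15 were Dysf, which encodes a muscle membrane repair protein, Nectin3, a cell adhesion gene, Wnk4, a kinase gene of ion transport, and Vgll3, which encodes a TEAD cofactor.

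WT-only regions as a whole were narrow and low in both lists. Their median width was 217 bp (quartiles 156.5 and 309), and medians of the crossing pairs ran from 207 to 245.5 bp. The median fold was 3.45 in WT replicate 1 and 3.32 in WT replicate 2, where all peaks of those lists had medians of 4.52 and 4.35. The highest fold was 7.10 in WT replicate 1, near Plpp3, and 7.28 in WT replicate 2, at Col27a1. Median strength was 14.98. For the crossing pairs the smaller percentile was taken over the 1 WT and 1 KO list that called the region, with medians of 12.4 to 13.7. For regions called in all 4 lists it was the smallest of 4 percentiles, with a median of 49.3, so these values are not the same measure. The percentiles in the 2 WT lists went together with a Pearson r of 0.599 across the 1867 regions, which share libraries and are not independent. The 2 WT peaks of a region overlapped by a median of 118 bp, or 63.0% of the region.

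**Figure D1:**
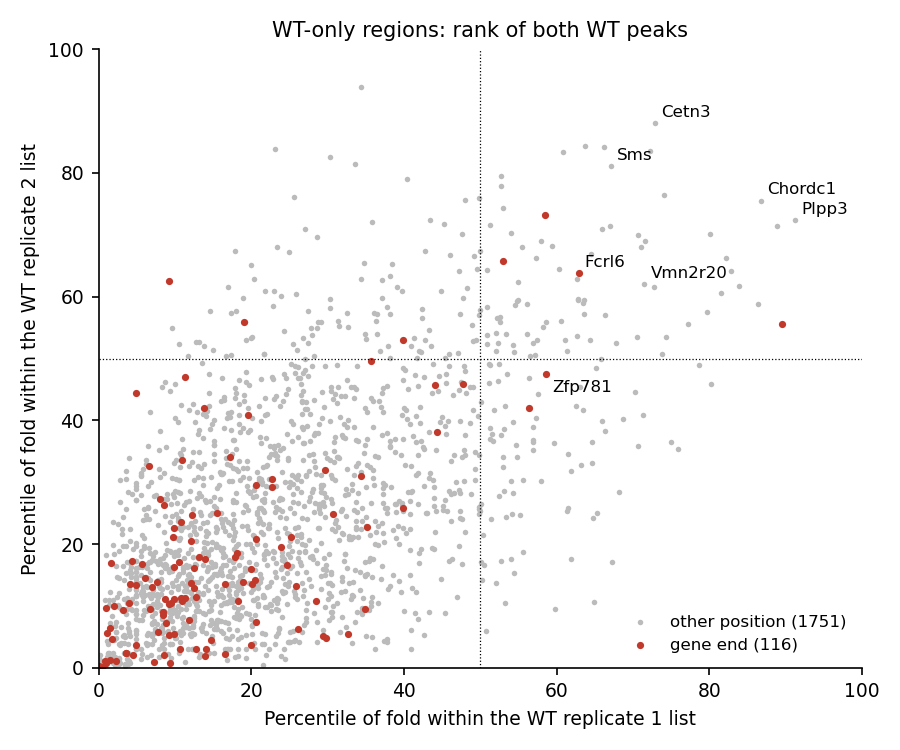
Each point is 1 WT-only region, placed by the percentile of its fold within the list of WT replicate 1 (horizontal, %) and of WT replicate 2 (vertical, %). Red points are the 116 gene-end regions and grey points all others. Most points lie in the lower left, and 82 regions lie at or above percentile 50 in both lists, beyond both dotted lines.

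The largest q-value of a member peak was 0.0485 in WT replicate 1 and 0.0471 in WT replicate 2, close to the limit of the lists. Just outside, 1752 regions were called in both WT lists and KO replicate 1, where the KO peak had a median percentile of 23.9. Another 3190 were called in both WT lists and KO replicate 2, with a median KO percentile of 26.8. On the other side, 4605 regions were called in WT replicate 1 only (median percentile 9.99) and 6829 in WT replicate 2 only (10.6). Around the members themselves, 4 had a KO peak within 100 bp and 175 (9.37%) within 1 kb, and the median distance to a KO peak was 6108 bp.

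Most WT-only regions lay inside genes or between them, away from gene ends. Gene-end regions, within 1 kb of either end of a protein-coding gene, numbered 116 (6.21%, interval 5.16 to 7.41). The crossing pairs held 5.96% to 6.97%, and regions called in all 4 lists 22.3%. A further 906 (48.5%, 46.2 to 50.8) lay inside a gene, against 48.9% to 50.5% in the crossing pairs. Outside genes, 536 (28.7%, 26.7 to 30.8) were at most 50 kb from the nearest end and 309 (16.6%, 14.9 to 18.3) farther away, where the crossing pairs had 13.2% to 15.7%. The share farther away stood above the range of the pairs, and its interval included the upper end of that range. No test was run on these shares, because 2 against 2 libraries cannot give a two-sided exact p under 0.33.

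**Figure D2:**
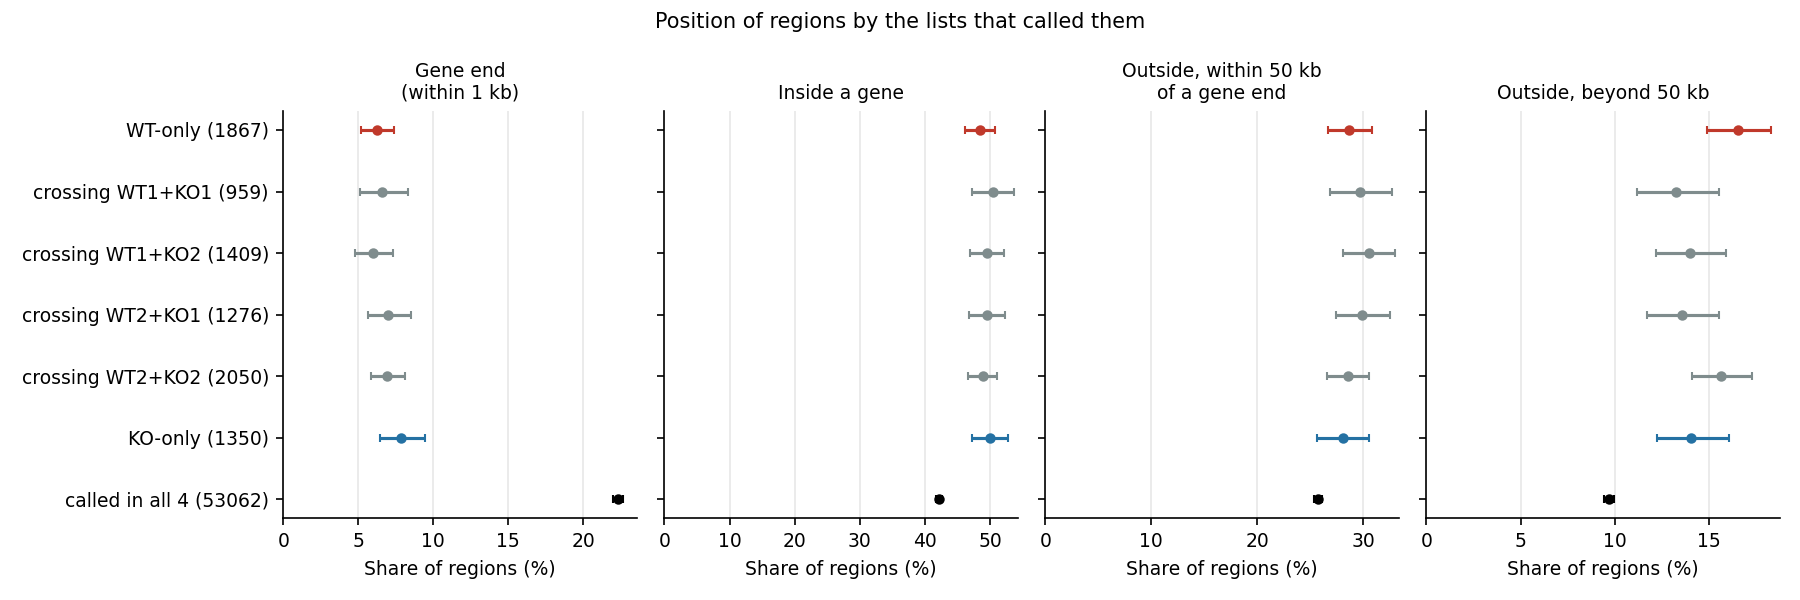
Share of regions (%, horizontal) in 4 position classes, with 1 line for each calling pattern and the number of regions in brackets. Crossing means called in exactly the WT and KO library named, points are shares and bars are 95% Clopper-Pearson intervals. The WT-only gene-end share of 6.21% lies near those of the crossing pairs and far from the 22.3% of regions called in all 4 lists.

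The median length of the host gene was 94182 bp over 897 regions with 1 host. It was 94413 to 113997 bp in the crossing pairs and 91385 bp for regions called in all 4 lists. Over the 725 regions whose host has a known strand, the median position was 46.6% of the way from the 5′ to the 3′ end, against 47.0% to 49.2% in the crossing pairs and 46.0% for regions called in all 4 lists. The nearest region called in all 4 lists was at a median of 9224 bp (crossing pairs 7293 to 10066), and 131 WT-only regions (7.02%) had one within 1 kb.

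The strongest gene-end region belonged to Fcrl6, an Fc receptor-like gene, with fold values of 5.08 and 4.95. It lay at chr1:172594644-172594764, 750 bp beyond the 3′ end. At Dut, which encodes the dUTPase that keeps uracil out of DNA, the region at chr2:125259373-125259548 had 6.89 in WT replicate 1 and 4.58 in WT replicate 2. Myl2, a myosin light chain gene of heart muscle, had 4.65 and 5.05, and Oacyl, an acyltransferase gene, had 4.88 and 5.45. The other 8 of the 12 strongest were at Zfp781, Itgb1bp1, Clec16a, Dctn3, AF067061, Glra1, Exosc9 and Foxl2. The regions of Myl2 and Itgb1bp1 lay inside the neighbouring genes Ccdc63 and Asap2, and that of Exosc9 also lay inside Ccna2. Clec16a acts in mitophagy, Dctn3 is a subunit of dynactin, Glra1 a glycine receptor subunit, Exosc9 a subunit of the RNA exosome and Foxl2 a transcription factor of the ovary. Strength over the 12 ran from 31.0 to 62.9. AF067061 is a poorly described gene near copies of itself, and the treatment of reads with several matches is unknown here.

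Of the 92 gene-end regions whose gene has a known strand, 55 lay at the 5′ end and 37 at the 3′ end. The 5′ share was 59.8% (interval 49.0 to 69.9), and the crossing pairs ran from 59.1% to 71.2%. Gene-end regions were wider than the other members, with medians of 281.5 and 216 bp, and weaker, with median strengths of 9.50 and 15.4. In the crossing pairs gene-end medians ran from 224 to 295 bp and the others from 206 to 241 bp. At 22 of the 116, a region called in all 4 lists lay within 1 kb of the same gene end, so that the start or end of the gene was open in both genotypes beside the WT-only call. The same count is not given for gene-end crossing regions, so it has no base beside it.

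The 25 strongest WT-only regions with a gene within 50 kb had strengths from 59.4 to 75.5 and widths from 121 to 497 bp. Only 1 of them lay at a gene end, while 10 lay inside genes and 14 outside. Their genes were of mixed kinds. Igsf3, an immunoglobulin superfamily gene, had fold values of 5.16 and 5.11, Mdga1, which encodes a membrane-anchored protein of neurons, 4.97 and 4.98, and Cntnap2, a neurexin family gene, 6.36 and 4.85. Rsl24d1, a factor of ribosome assembly, had 6.28 and 4.96, and Riox2, a ribosomal oxygenase, 4.99 and 6.13. The region assigned to Riox2 lay inside the neighbouring gene Crybg3. Hao1, which encodes a peroxisomal oxidase typical of liver, had 5.60 and 4.85 at chr2:134549904-134550036 inside the gene.

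Further strong regions lay near Armcx1, a mitochondrial protein gene of the X chromosome, at 5.07 and 4.91 and near Ear6, an eosinophil-associated ribonuclease gene, at 5.08 and 4.76. Vmn2r20 and Vmn2r21, genes of pheromone receptors, had 5.53 and 4.87 and 4.92 and 5.17. These 2 regions, at chr6:123424414-123424692 and chr6:123539781-123540024, had no region called in all 4 lists within 50 kb, and the nearest KO peak was 84030 and 199397 bp away. For the other 23, at least 1 region called in all 4 lists lay within 50 kb. Ear6 and the Vmn2r genes belong to families of near-identical copies, so the placing of their reads is uncertain.

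The widest regions were a different set of places. The 10 widest spanned 922 to 1395 bp, had strengths from 3.80 to 26.7, and 3 of them were at gene ends. Gak, which encodes a kinase of clathrin uncoating, had the widest, 1092 bp beyond its 3′ end, with fold values of 3.54 and 3.09. In WT replicate 1 its peak spanned 717 bp and in WT replicate 2 1395 bp. Arhgef26, an exchange factor gene of small GTPases, had a gene-end region of 1119 bp made of peaks of 343 and 1119 bp. Mfsd2a, the carrier gene for lysophospholipids with omega-3 fatty acids, had peaks of 197 and 922 bp at its 5′ end. Thus in these 3 the peak of WT replicate 2 was the wider one. Slc28a2, a nucleoside transporter gene, had the strongest of the 10, with 3.98 and 3.48. Of the 134 members of at least 500 bp, 21 (15.7%) were at gene ends, against 7.34% to 15.7% in the crossing pairs.

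At least 1 WT-only region was assigned to 1290 of the 17155 protein-coding genes with any assigned region (7.52%), and a crossing region to 3531 (20.6%). Assignment went to the nearest gene end within 50 kb, and 1364 regions (73.1%, 70.98 to 75.1) had one. Of the other 503, 194 lay deep inside a gene and 309 outside genes. Most of the 1290 genes were open elsewhere in both genotypes, since 1144 (88.7%) also had a region called in all 4 lists, against 88.2% to 90.7% in the crossing pairs. A KO-only region, called in both KO lists and in neither WT list, was assigned to 117 of them. Those are 9.07% of the WT-only genes and 12.4% of the 947 KO-only genes, and 7.46% to 8.74% of genes of the crossing pairs had one.

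A single WT-only region was assigned to 1219 genes, 2 to 68 genes and 3 to Hmga2, Kmt2c and Rbpj. In the crossing pairs, genes with at least 2 numbered 20 to 91, rising with the size of the pair's set, and genes with 3 or more numbered 0 to 3. Hmga2 encodes an architectural chromatin protein of embryonic and tumour cells. Its regions had fold values of 3.48 and 3.61, 2.95 and 3.12, and 3.68 and 3.65, in the order WT replicate 1 and WT replicate 2. They lay inside the gene among 7 regions called in all 4 lists. Kmt2c encodes a methyltransferase of histone H3 lysine 4 that acts at enhancers. Its regions had 3.23 and 3.15, 2.95 and 2.99, and 2.99 and 3.71, with strengths of 13.7, 4.90 and 6.21. Rbpj encodes the DNA-binding factor of the Notch pathway, and its strongest region, at chr5:53621985-53622282, had 4.81 and 3.84. The other Rbpj regions had 3.57 and 3.67, and 3.20 and 2.92. None of the 3 genes held a KO-only region.

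**Figure D3:**
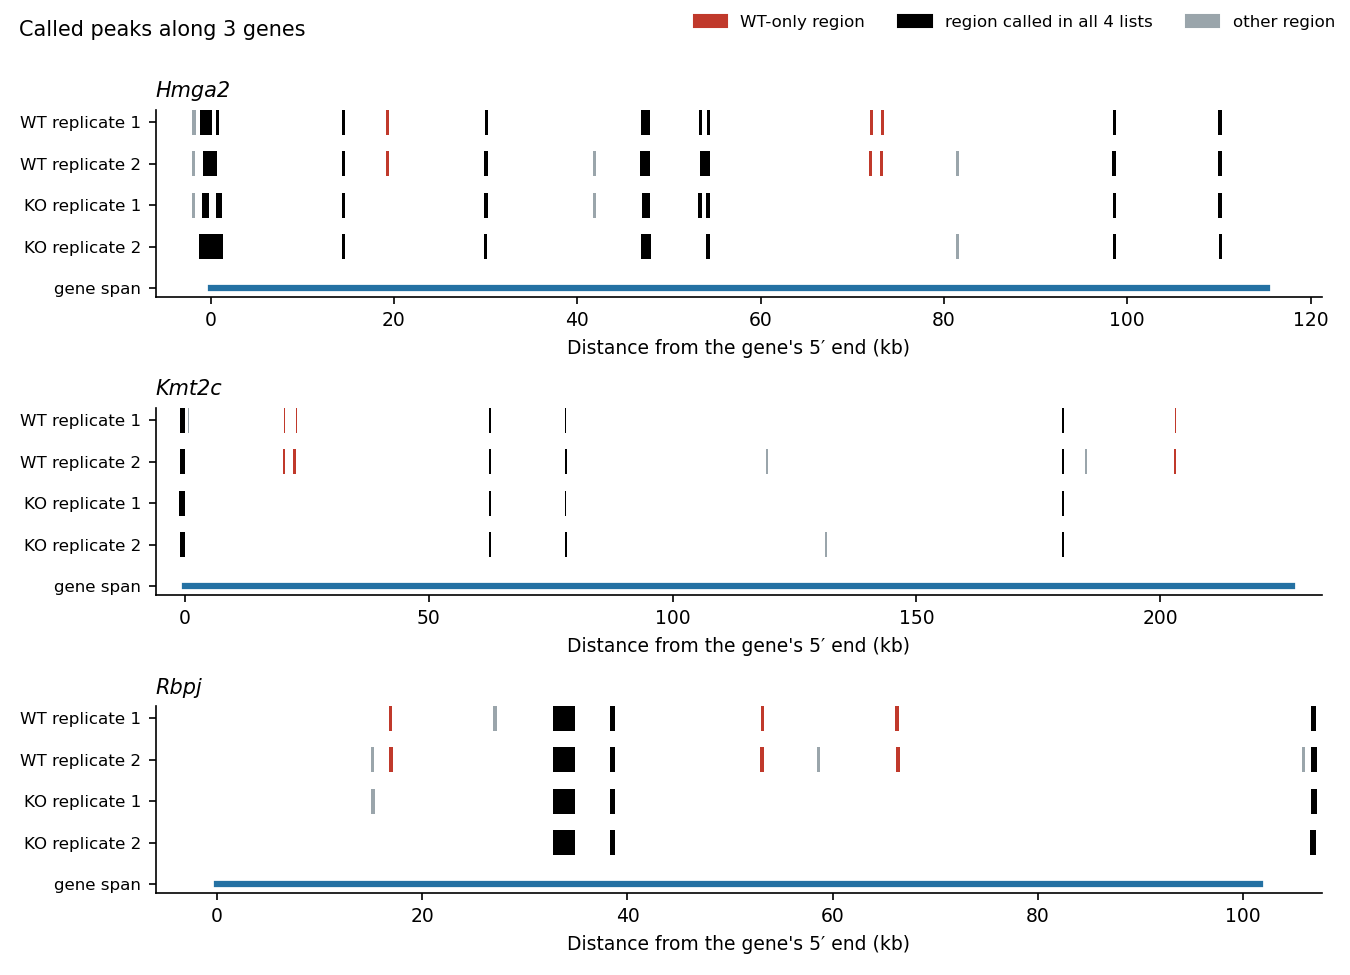
Called peaks along Hmga2, Kmt2c and Rbpj, by distance from the 5′ end of the gene (kb, horizontal), with 1 row per library and the gene span as a blue line. Red bars are peaks of WT-only regions, black bars of regions called in all 4 lists and grey bars of other regions, and very narrow peaks are drawn at a fixed least width. Each gene shows 3 red regions in the WT rows and none in the KO rows.

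Among the 68 genes with 2, the pairs whose weaker region ranked highest were those of Jrkl, Cntnap2, Gpcpd1 and N4bp1. At Jrkl both regions lay outside the gene, 10974 and 46831 bp from its 3′ end, with fold values of 4.71 and 4.39 and of 5.07 and 4.50. At N4bp1, which encodes an RNA-cleaving protein that restrains cytokine responses, one region lay inside the gene with 4.75 and 5.16 and the other 48678 bp beyond the 5′ end with 3.83 and 4.31. Gpcpd1 encodes a phosphodiesterase of glycerophosphocholine, and its regions had 5.50 and 5.16 and 3.96 and 3.82. Lilra6, an immunoglobulin-like receptor gene of myeloid cells that has close copies nearby, had regions of 239 and 115 bp that were 1934 bp apart. Over the 12 pairs that ranked highest in this way, 12 regions lay inside genes and 12 outside.

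WT-only regions were scattered along chromosomes. Another WT-only region lay within 10 kb of 46 of them (2.46%, interval 1.81 to 3.27), against 1.04% to 2.48% for the crossing pairs. Within 100 kb it was 379 (20.3%, 18.5 to 22.2), against 12.4% to 24.9%. At 100 kb the share grew with the number of regions in a pair, and the WT-only share lay between those of the pair just below it in size and the pair just above. There were 11 groups of 3 or more within 100 kb, holding 34 regions, where the crossing pairs had 2 to 17 groups. Of the 11 groups, 10 also held regions called in all 4 lists and 2 held a KO-only region. These counts were not made for groups of the crossing pairs, so they have no base beside them.

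**Figure D4:**
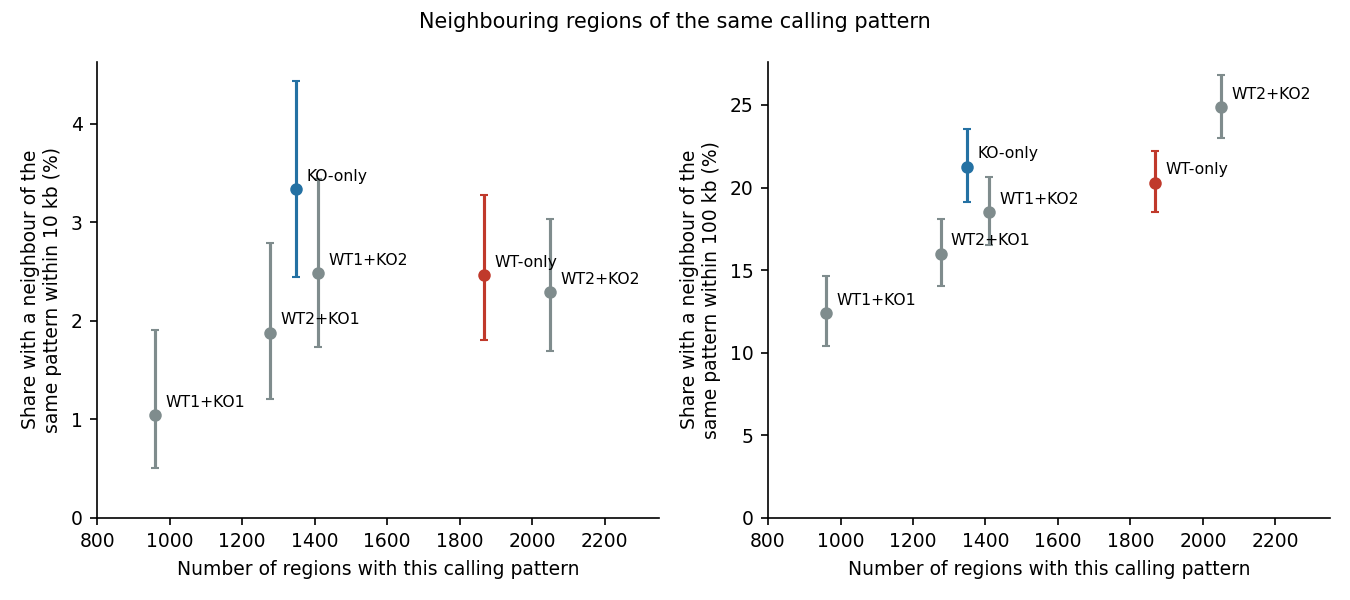
Share of regions (%, vertical) with a neighbour of the same calling pattern within 10 kb (left) and 100 kb (right), against the number of regions with that pattern (horizontal). Points are shares, bars are 95% Clopper-Pearson intervals, red is WT-only, blue KO-only and grey the 4 crossing pairs. At 100 kb the WT-only point of 20.3% lies between the grey points at 18.5% and 24.9%.

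Besides those of Hmga2 and Rbpj, 2 groups lay inside 1 gene. Ldlrad3, a receptor gene of the LDL receptor type, held 3 regions in its span, and the large synaptic scaffold gene Magi2 held 3 with strengths of 18.0, 10.0 and 18.6. The Magi2 group was the one whose span had no other called region of any pattern. Others lay partly inside a gene. At Ralgapa2, a gene of a GTPase-activating protein for Ral, 2 regions were inside and 1 was outside, with strengths of 16.9, 27 and 21.2. The group around Arhgap12, a GTPase-activating protein gene, had 4 regions over 108210 bp, 2 inside the gene and 2 outside, with strengths from 0.325 to 45.5. The regions of other groups were assigned to several genes. Cep43, Ccr6 (a chemokine receptor) and Mpc1 (a subunit of the mitochondrial pyruvate carrier) had 1 region each within 66173 bp. Pitrm1 and Pfkp, which encodes a phosphofructokinase, shared a group of 52667 bp. There 2 regions lay inside Pfkp, 1 of them nearest to an end of Pitrm1, and 1 lay outside. A group near Pdk4 and Dync1i1 and another near Lmo4 lay farther than 50 kb from any gene end. The remaining group, at A530032D15Rik and Gm38510, was among the weakest, with strengths of 0.59, 3.62 and 1.71, and these 2 genes belong to a locus of repeated copies.

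By chromosome, WT-only regions made up 3.02% of the 1889 regions on X (interval 2.29 to 3.89), 2.67% on chromosome 18 (2.10 to 3.34) and 2.52% on chromosome 14 (2.05 to 3.05), where the interval lay above the genome share of 2.03%. On chromosome 15 it was 1.57% (1.20 to 2.02), and the interval lay below. The intervals of the other 17 chromosomes included the genome share. Crossing regions, 6.20% over the genome, made up 8.15% on X, 5.96% on chromosome 18, 6.40% on chromosome 14 and 6.37% on chromosome 15. With 21 intervals at 95% confidence, about 1 can miss the genome share by counting error.

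Gene families, defined by symbol, were described by the share of their assigned regions that were WT-only. Over all 71133 assigned regions that share was 1.92% for WT-only and 5.93% for crossing. A family member was the nearest gene of 333 of the 1364 assigned WT-only regions (24.4%), against 23.3% to 24.8% in the crossing pairs. In the 39 families with at least 100 assigned regions the WT-only share ran from 0% to 5.22%. The interval held the background share in 37 of them and lay just above it in the other 2, the vomeronasal receptors and the integrins. For the integrins this rested on a gene that matches by symbol only: with the 27 integrin chain genes alone, 8 of 204 regions were WT-only (3.92%, 1.71 to 7.58), and the interval held the background. With 39 intervals at 95% confidence, a few can miss the background by counting error.

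**Figure D5:**
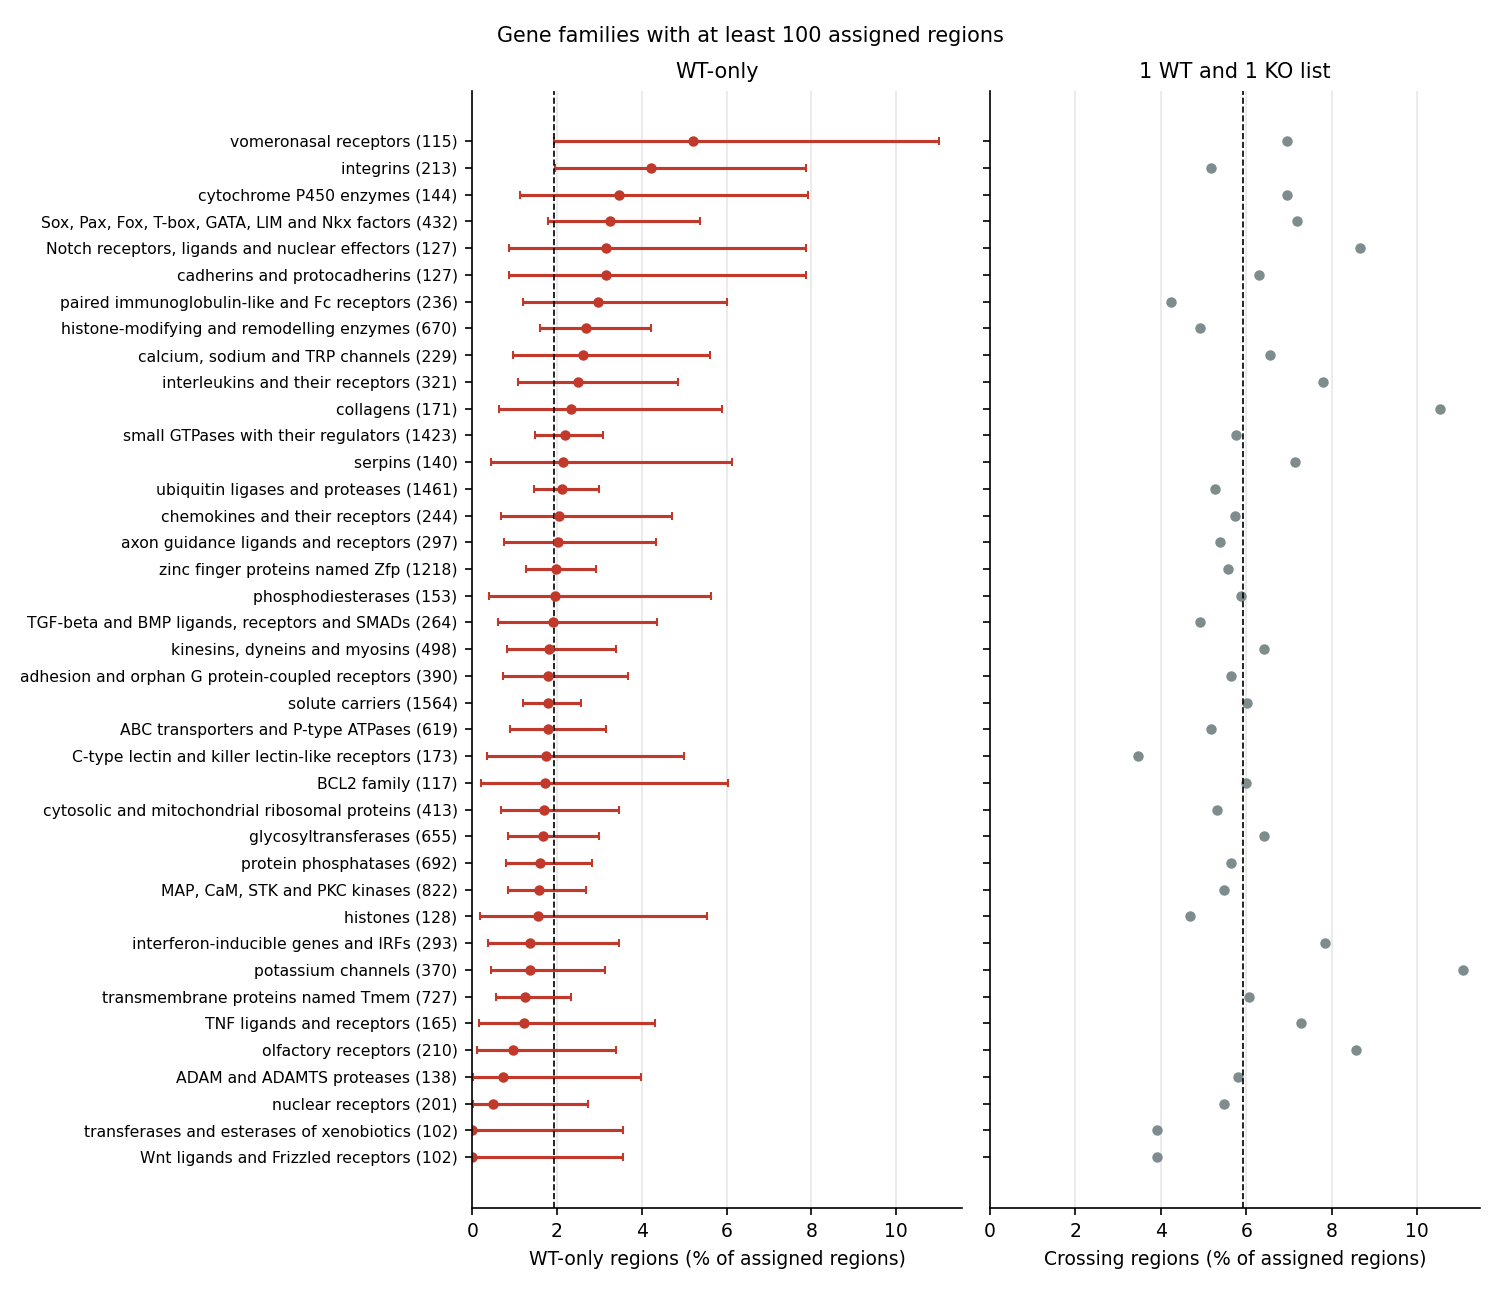
Share of a family's assigned regions that were WT-only (left, %) and crossing (right, %), for the 39 families with at least 100 assigned regions, whose number stands in brackets. Points are shares, bars on the left are 95% Clopper-Pearson intervals, and dashed lines mark the shares over all assigned regions, 1.92% and 5.93%. The intervals of vomeronasal receptors and integrins begin at 1.94% and 1.95%, just above the dashed line, and all others include it. Integrins are drawn by symbol here, and with integrin chains alone their interval begins at 1.71%.

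Integrins are paired membrane receptors through which macrophages bind matrix and other cells. WT-only regions were assigned to 9 of the 31 family genes, 1 region each, out of 213 regions (4.23%, interval 1.95 to 7.87), while 11 of the 213 were crossing (5.16%). The alpha chain genes were Itgav, Itga1, Itga2, Itga8 and Itga4, and the beta chain genes Itgb8, Itgb3 and Itgb5. Itgb1bp1, the remaining gene, encodes a protein that binds an integrin tail and is not itself an integrin. It had the strongest region, with fold values of 4.43 and 4.19 at its 3′ end, inside the neighbouring gene Asap2. Itgav, which pairs with several beta chains and helps to activate TGF-beta, had 4.32 and 3.96. Itgb8, a partner of Itgav, had 3.69 and 4.08, Itga1 had 3.53 and 4.24 and Itgb3 had 3.94 and 3.34. Itgb5 and Itga4 had the weakest, with 2.32 and 2.23 and with 2.16 and 2.06. Itga1 and Itga2 lie side by side on chromosome 13, and both their regions lay on that stretch, at chr13:114987240-114987449 and chr13:114831565-114831732. Apart from Itgb1bp1, none lay at a gene end.

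The transcription factor families Sox, Pax, Fox, T-box, GATA, LIM and Nkx hold many genes that PRC2 keeps silent in differentiated cells. The set counted here, taken by symbol, also held other homeobox genes, among them Emx2, Otx1 and Irx2. It had 14 WT-only regions of 432 (3.24%, interval 1.78 to 5.38) at 13 genes, and 7.18% of its regions were crossing. Of the 14, 7 lay at gene ends. The gene-end share among the family's crossing regions, or among all 432, was not counted, so this has no base beside it. The 7 gene-end regions were at Foxl2, Foxn3, Otx1, Nkx2-4, Tbx2 and, with 2 regions 623 bp apart, Nkx6-3. The weaker Nkx6-3 region lay 14 bp from a KO peak. Emx2, a forebrain and kidney regulator, had the strongest region, 2085 bp inside the gene, with 4.42 and 4.65. Gata2, a regulator of blood progenitors and mast cells, had 4.57 and 3.92 at 11858 bp outside the gene, and Pax8, a thyroid and kidney regulator, had 3.83 and 3.75. Foxl2 had 3.94 and 3.64 and Nkx6-3 had 3.97 and 3.35 in the stronger of its regions. Tbx2 was among the weakest, with 2.56 and 2.94.

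Enzymes that modify histones or remodel nucleosomes had 18 WT-only regions of 670 (2.69%, 1.60 to 4.21) at 16 of 131 genes, none at a gene end. That interval held the background of 1.92%. Lysine demethylase genes were among the 16, and their share of all 131 genes was not counted. Kdm1a, which acts on H3 lysine 4, had the strongest region, with 4.43 and 5.27, but it lay inside the neighbouring gene Luzp1, 30352 bp from Kdm1a. Kdm4d had 4.03 and 4.40, Kdm4c had 3.72 and 3.73, Kdm5b had 3.36 and 3.30 and Kdm3b had 3.03 and 3.44. Chd5, a remodeller gene, had 3.80 and 3.97. Kdm6a, which removes the mark that PRC2 sets, had 3.23 in WT replicate 1 and 4.43 in WT replicate 2 at 4777 bp outside the gene. On the list of 13 PRC2 and H3K27 demethylase genes, Aebp2 was the other gene with a WT-only region, at 2.26 and 2.72. That list had 2 WT-only regions of 71 (2.82%, 0.343 to 9.81), and this interval also held the background. No region of that list was crossing.

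Vomeronasal receptors detect pheromones in the nose, and most of these genes (284 of 355) had no assigned region. Of the 115 regions near the others, 6 were WT-only (5.22%, 1.94 to 11.0), at Vmn2r20, Vmn2r21, Vmn2r114, Vmn1r180, Vmn1r184 and Vmn1r234, and 6.96% were crossing. In order of strength, the 4 not yet described ran from Vmn1r180, with 3.33 and 3.78, to Vmn2r114, with 2.95 and 3.00. Larger families lay near the background. Zinc finger genes named Zfp had 24 of 1218 (1.97%, 1.27 to 2.92), solute carriers 28 of 1564 (1.79%, 1.19 to 2.58) and olfactory receptors 2 of 210 (0.952%, 0.116 to 3.40). Potassium channels had 5 WT-only regions of 370 (1.35%) but 41 crossing ones (11.1%). Wnt ligands and Frizzled receptors had 0 of 102, which allows a share of up to 3.55% by the exact interval.

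Genes of macrophage identity and activation held a few WT-only regions each, none of them at a gene end, beside many regions called in all 4 lists. On the macrophage identity list, 6 of 215 regions (2.79%, 1.03 to 5.97) were WT-only, at Irf8, Runx1, Mitf and Zeb2. Irf8, a lineage factor of macrophages and dendritic cells, had one region 26884 bp outside the gene with 5.10 in WT replicate 1 and 3.70 in WT replicate 2, and one inside with 2.91 and 2.42. Runx1 had 3.63 and 3.54, and Mitf had 3.62 and 3.15. Zeb2 had 3.61 and 2.78 at one region and 2.77 and 2.82 at the other. In each pair of Irf8 and Zeb2, one region was outside the gene and one inside.

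Inflammatory activation had 5 of 201 (2.49%, 0.813 to 5.71), at Il12a, Il12b, Cxcl9 and Cd38. Il12a and Il12b encode the 2 subunits of the cytokine IL-12, which together drive type 1 T cell responses. The Il12a region at chr3:68717456-68717614, 18906 bp outside the gene, had 4.59 and 4.03. Il12b had 4.36 and 3.55 at 40070 bp outside the gene and 2.94 and 3.09 inside it. Cxcl9, an interferon-induced chemokine gene, had 3.81 and 3.79 at 2890 bp outside the gene, and Cd38 had 2.95 and 2.76. Alternative activation had 3 of 197 (1.52%, 0.315 to 4.39), at the scavenger receptor gene Cd163, with 5.01 and 3.44, and at the inhibitory receptor gene Cd200r1, with 3.27 and 3.47 and with 3.39 and 3.04. These lists thus held WT-only regions at rates whose intervals include the background of 1.92%.

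The tumour-associated macrophage list had 2 of 168 (1.19%, 0.145 to 4.23), at Tgfbi, a matrix protein gene, with 3.57 and 4.77, and at Havcr2, which encodes the checkpoint receptor TIM-3, with 2.95 and 3.03. The lipid and cholesterol list had 3 of 123, at Cd36 (4.32 and 3.08), Acaca (3.53 and 3.23) and Lipa (3.05 and 3.08), genes of fatty acid uptake, fatty acid synthesis and lysosomal lipid breakdown. In the Notch list, 4 of 152 were WT-only, the 3 at Rbpj and 1 at its coactivator gene Maml1, with 3.12 and 2.82. The heat shock list had 3 of 62, with 2 at Chordc1 and 1 at Hsph1 (2.95 and 3.00). Besides its strong upstream region, Chordc1 had a region at its 5′ end with 3.09 and 2.48. The polyamine list had 1 of 84, at Sms, and the interferon list 1 of 62, at Isg15. Over the 10 lists the WT-only share ran from 1.19% to 4.84%.

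Among markers of other cell types, Ebf1 (B cell), Bcl11b (T cell), Gata2 (mast cell), Flt3 (dendritic cell) and Col1a1 (fibroblast) had 1 WT-only region each. Bcl11b had fold values of 4.58 and 3.88, Gata2 4.57 and 3.92, Col1a1 3.80 and 4.15, Ebf1 3.81 and 2.95 and Flt3 3.23 and 2.92. Hepatocyte and hepatoma markers had none of 18 assigned regions and neutrophil markers none of 14. The part of other cells in these calls was not tested.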

How the data were processed

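ATAC-seq peaks of 4 libraries were used, 2 WT and 2 KO, grouped by their titles. Per the submitters' processing notes, reads were handled with fastp, Bowtie2 and MACS2 on mm10. Not given in the sources used here: tool versions, read filters, the treatment of reads with several matches, any shift for the transposase. The authors deposited 1 broad peak list per library, not pooled. Each deposited peak carries a score, a fold (ratio over local background), and a −log10 p-value and −log10 q-value. These are the authors' values and were used only to describe or rank peaks within a list. The files used here give no counts, so depth is unknown and intervals cover counting error only.

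Peaks overlapping by at least 1 bp were merged with Python 3.11.15 (pandas 2.3.3, scipy 1.17.1), and regions were sorted by the lists that called them. The steps were tested on simulated peaks. Genes were the 21887 protein-coding genes of the RefSeq table of GRCm38.p6, which has no exons. Start windows came from a RefSeq table that matched 17492 of them, with 21263 windows, and gave their strand. The members, gene families and lists were chosen with earlier results of these data known. Named genes were those of the 25 strongest and 10 widest regions, the 12 strongest at gene ends, genes with 3 regions and the 12 strongest pairs, groups of 3 or more within 100 kb (overlapping groups joined), the 3 strongest of each family with at least 5, and list or marker genes. Genes at start windows were chosen after their values were seen. No test was run, since 2 libraries against 2 allow no exact p under 0.33. Alternatives changed peak strength, overlap, width, merging gap, chromosomes, distances and the libraries used. A few genes that meet the naming rule are not reported here.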

Additional observations from a re-analysis of the deposited data

How the results depend on the processing

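No paired analysis was possible because no result comes from a test and the replicate numbers are not said to mark a shared animal or day. The number of genes with at least 2 regions moved in 9 of 12 settings, the share with another region within 10 kb in 6 of 11 and the region count in 5 of 11. The gene-end share moved in 4 of 12, the assigned share in 4 of 13 and the inside-gene share in 1 of 11. Keeping peaks at percentile 25 of fold or above gave a gene-end share of 7.75%, 42 genes with at least 2 regions and 1.60% of regions with another within 10 kb. At percentile 50 there were 1196 regions, a gene-end share of 11.1%, 45.1% inside genes, 78.6% assigned and 32 genes with at least 2. Weak KO peaks are removed as well there, so these are partly other regions. The crossing regions moved alike, to gene-end shares of 7.75% and 11.5%. Asking a peak to cover 50% of the region gave a gene-end share of 8.73% (crossing 8.61%), 151 genes with at least 2 and 4.39% with a neighbour. Regions of 150 bp or more gave 42 genes with at least 2. With 2500 bp as the gene-end distance the share was 12.6% (crossing 13.1%). Assignment within 10 kb placed 34.1% and left 8 genes with at least 2, and within 100 kb it placed 85.1%.

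Leaving out a library loosens the rule to a single call or absence. Omitting WT replicate 1 gave 8743 WT-only regions and omitting WT replicate 2 gave 6525. Omitting a KO library gave 3616 (KO replicate 1) and 5060 (KO replicate 2). In the same order genes with at least 2 numbered 1058, 679, 255 and 447, and neighbour shares were 11.3%, 9.46%, 4.78% and 7.61%. The assigned share ran from 69.5% to 74.7%. Unknown depth limits every absence of a call. Counting integrin chains alone was chosen after seeing the data.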
